A study of Homo sapiens with 15 samples.

Results

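NRF2 is the transcription factor encoded by NFE2L2, and KEAP1 is the protein that holds it in check. These genes and 7 NRF2 target genes (NQO1, TXNRD1, TXN, SRXN1, PGD, ME1 and SLC7A11) were followed here in A549 cells exposed to hyperoxia. The 9 genes were chosen by symbol, because A549 is known to lack working KEAP1 and so to have NRF2 targets already raised. This choice, and that of the gene lists below, was made with earlier results of these data known. All 9 were found among the 43388 genes of the count files, and all passed the filter on low counts. A549 is a human lung adenocarcinoma line with features of alveolar epithelium. The labels call its genotype WT, and read counts hold no sequence by which the KEAP1 mutation could be checked.

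RNA of this line was sequenced in 15 libraries. The labels describe a 24 h pretreatment with 1e-05 mM all-trans retinoic acid (ATRA, the active form of vitamin A) or with its solvent ethanol (the vehicle), followed by 72 h in 95% oxygen (hyperoxia) or 21% oxygen (normoxia). Each oxygen exposure held 2 libraries whose labels name neither ATRA nor vehicle (no vehicle), 2 libraries with vehicle and 3 libraries with ATRA. The remaining library has conflicting labels and was given no group. Every library came from this 1 cell line, so differences between donors were not sampled.

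In most cells KEAP1 presents NRF2 to a CUL3 ubiquitin ligase, and NRF2 is degraded almost as soon as it is made. Oxidants and electrophiles modify cysteines of KEAP1, NRF2 then escapes, pairs with a small MAF protein in the nucleus and binds antioxidant response elements near its target genes. This control acts mostly on the NRF2 protein, which mRNA counts do not measure. The targets studied here feed and use a common reductant, NADPH. PGD and ME1 produce NADPH. TXNRD1 spends it to reduce thioredoxin (TXN), thioredoxin in turn supports sulfiredoxin (SRXN1) in repairing over-oxidised peroxiredoxins, and NQO1 spends it to reduce quinones. SLC7A11 imports cystine, the building material of glutathione. Lungs given high oxygen are a classical setting in which NRF2 targets rise.

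The antioxidant response element has the core letters TGACNNNGC. These letters were searched on both strands from 250 bases before to 50 bases after each RefSeq start site. The RefSeq table used (GRCh38.p14) holds such promoters for 8 of the 9 genes, 11 promoters in all, and that of SLC7A11 was not analysed. The letters were found for 4 of the 8 genes, KEAP1, TXNRD1, PGD and ME1, against 16.1% of the 27305 genes in the RefSeq table. In hyperoxia KEAP1 and TXNRD1 were higher, and PGD and ME1 were lower. The stretches around the first match are shown for all 4 genes because they hold the letters, whatever their direction. Each is 99 bases long, reads 5′ to 3′ on the strand of its gene and has the matching letters in capitals. The matches lie 54, 99, 201 and 137 bases before a start site of KEAP1, TXNRD1, PGD and ME1. For KEAP1 this start site lies within the gene. The KEAP1 promoter at the outer end of the gene (chr19:10503307-10503606) held 0 matches.
KEAP1 promoter, chr19:10502772-10502870, minus strand: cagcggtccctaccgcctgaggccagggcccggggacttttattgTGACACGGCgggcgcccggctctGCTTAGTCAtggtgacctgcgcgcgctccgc
TXNRD1 promoter, chr12:104215635-104215733, plus strand: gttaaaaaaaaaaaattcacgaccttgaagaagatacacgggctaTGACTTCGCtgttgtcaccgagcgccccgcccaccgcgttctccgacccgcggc
PGD promoter, chr1:10398818-10398916, plus strand: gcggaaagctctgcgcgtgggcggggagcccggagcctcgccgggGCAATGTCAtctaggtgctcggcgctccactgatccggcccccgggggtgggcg
ME1 promoter, chr6:83431135-83431233, minus strand: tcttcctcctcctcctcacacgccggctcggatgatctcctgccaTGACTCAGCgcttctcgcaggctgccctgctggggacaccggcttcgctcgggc
A match is a description of the letters and not evidence of a bound site. The KEAP1 stretch holds a second match, on the opposite strand, and the PGD match is on the opposite strand. The promoters of TXNRD1 and ME1 shown in part also hold a further match outside the stretch, on the opposite strand. The other TXNRD1 promoter (chr12:104286782-104287081), whose start site lies within the gene, held 1 match, on the opposite strand. No match in the windows of NFE2L2, NQO1, TXN and SRXN1 says only that these letters are not within them.

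Counts on genes ranged from 2642377 to 5605072 per library, so that 3 counts corresponded to 0.535 to 1.14 CPM, that is, counts scaled to a common library size. The 9 genes had at least 187 counts in every library. Values below are CPM normalized by the TMM method of edgeR, except the summed levels of marker and response genes, which are CPM without TMM. Replicate 1 of hyperoxia without vehicle stood apart. Of 10276 genes with a median of at least 10 CPM, 394 had no count in it, against 0 to 5 in the other libraries. Calls of the 9 genes and counts of single gene lists that changed without it are given below. The total over the lists and the mean oxygen effects of single list genes include it. The summed level of 6 epithelial markers was 5564 to 9292 CPM in normoxia and 1668 to 4166 CPM in hyperoxia. KRT8 and KRT18 made up most of this sum, with medians of 2801 and 1244 CPM over all 15 libraries. The summed level of 10 markers of other cell types was 35.2 to 58.5 CPM in normoxia and 108 to 162 CPM in hyperoxia. It was carried mainly by ACTA2 and CD68, while VWF, DCN and CD3E were at 0 in all 15 libraries. COL1A1 went the other way, from a median of 5.29 CPM in normoxia to 0.767 CPM in hyperoxia, with at most 38 counts per library. The part of these shifts in the results was not tested, and in bulk RNA fewer cells with a transcript and less of it per cell cannot be told apart. Retinoic acid response genes, 5 in the list, summed to 923 to 1474 CPM in the libraries with ATRA and to 159 to 412 CPM in the others.

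The first question was whether hyperoxia raised NRF2 targets further in cells that already lack working KEAP1. Hyperoxia moved them apart. SRXN1 and TXNRD1 rose by 75.4% and 64.1% as the mean over the 3 treatments, and SLC7A11 and KEAP1 rose by 38.7% and 44.1%. The NADPH producers PGD and ME1 went the other way: PGD fell by 37.5% and ME1 fell by 30.1%. NQO1 was 14.4% higher, a small difference whose call was lost in most fits that left out a library. NFE2L2 and TXN did not pass. In counts, 5 of the 9 genes were called higher and 2 lower in this comparison of 7 hyperoxia with 7 normoxia libraries (edgeR's quasi-likelihood test, Benjamini-Hochberg adjusted p under 0.05 over 15339 genes), where 15.5% of all genes tested were called higher and 15.5% lower. Their median log2 fold change was 0.22, against -0.03 over all genes tested. Without replicate 1 of hyperoxia without vehicle the counts were again 5 and 2, with NFE2L2 called (log2 fold change 0.25, edgeR adjusted p = 0.0412) and NQO1 not called (0.16, adjusted p = 0.0966).

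**Figure D1:**
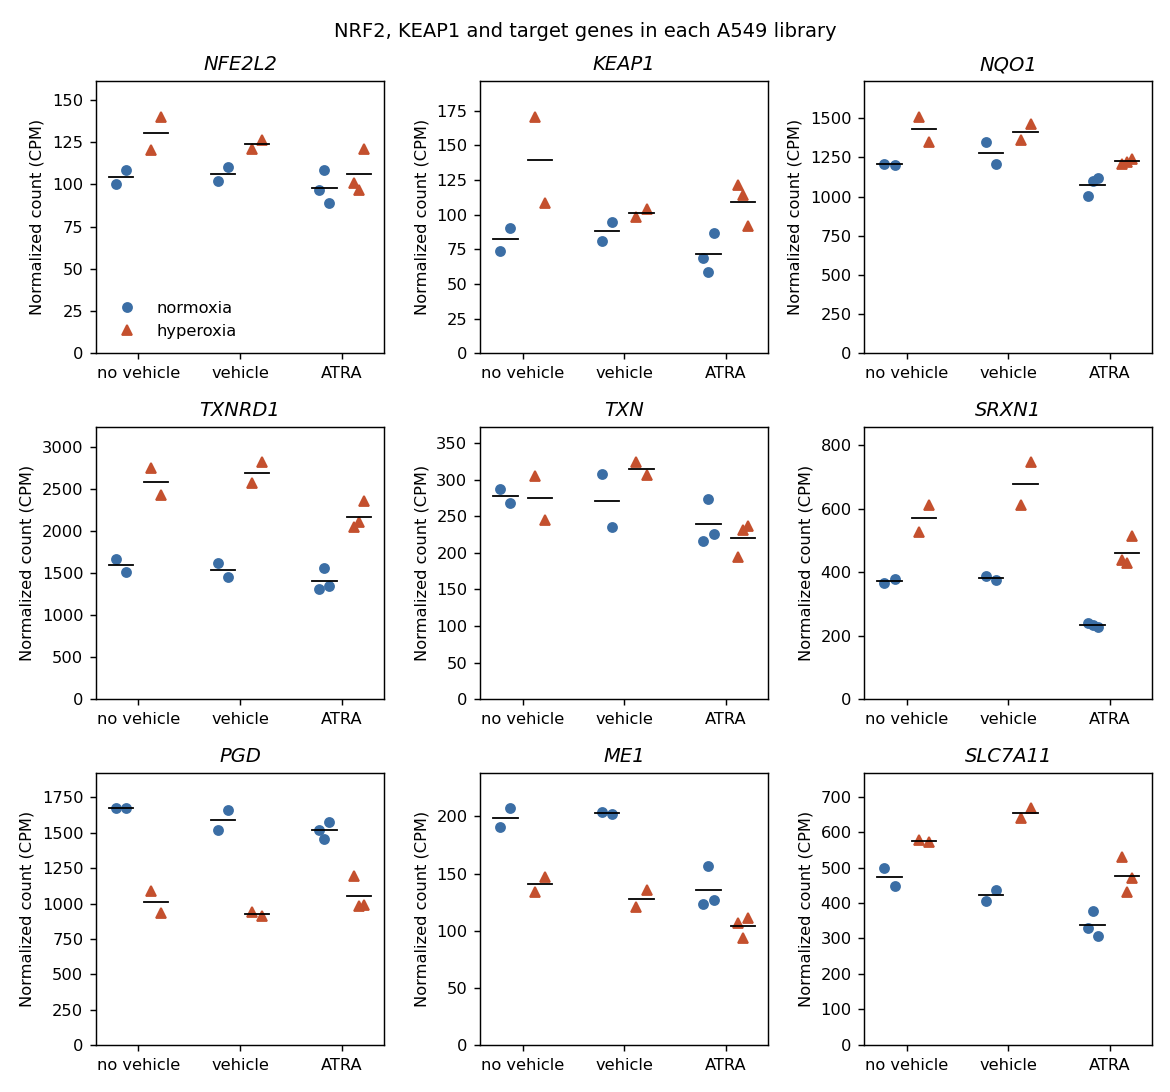
Normalized counts (CPM, vertical axes starting at 0) of the 9 genes in the 14 libraries with a group, by treatment, with normoxia as blue circles, hyperoxia as orange triangles and the group mean as a line. TXNRD1 and SRXN1 were higher and PGD lower in all 7 hyperoxia libraries than in all 7 normoxia libraries, while the ranges of the other 6 genes overlapped.

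TXNRD1, on chromosome 12 of GRCh38 from 104215779 to 104350307 (plus strand), encodes cytosolic thioredoxin reductase, a selenoprotein that uses NADPH. In normoxia it was at 1676 and 1515 CPM without vehicle, 1618 and 1452 CPM with vehicle, and 1308, 1566 and 1346 CPM with ATRA. In hyperoxia it was at 2754 and 2432 CPM without vehicle, 2574 and 2823 CPM with vehicle, and 2054, 2109 and 2363 CPM with ATRA. Every hyperoxia library lay above every normoxia library, also when replicate 1 without vehicle was left out. Such non-overlap in the higher direction was found for 6.34% of all genes tested. The mean log2 fold change was 0.71 (SE 0.073, 95% confidence interval 0.56 to 0.87, edgeR adjusted p = 1.88e-06). The rise passed the test within each treatment, with log2 fold changes of 0.70 without vehicle (edgeR adjusted p = 0.00235), 0.81 with vehicle (adjusted p = 0.000114) and 0.63 with ATRA (adjusted p = 0.000167). In a fit of only the 4 libraries without vehicle the call of that treatment was lost (0.70, edgeR adjusted p = 0.134). That fit called 58 of all genes, against 4665 in a fit of only the 4 vehicle libraries, and the cause was not tested. The 3 comparisons within treatments share no library, but the fits behind them do, so their estimates of the spread are not independent. TXNRD1 contains EID3 on the same strand, which held 0.365% as many counts.

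SRXN1, on chromosome 20 from 646615 to 653200 (minus strand), encodes sulfiredoxin, which restores peroxiredoxins whose cysteine has been over-oxidised by peroxide. It had the largest mean rise of the 9 genes. Its normoxia levels were 365 and 379.8 CPM without vehicle, 387 and 375 CPM with vehicle, and 240.5, 233 and 226 CPM with ATRA. Its hyperoxia levels were 528 and 612 CPM without vehicle, 613 and 746 CPM with vehicle, and 439, 430.2 and 514 CPM with ATRA. The ranges of the oxygen exposures did not overlap, which held in the higher direction for 6.34% of all genes tested. The 3 normoxia libraries with ATRA were the lowest of all. Over the treatments its mean log2 fold change was 0.81 (SE 0.073, interval 0.66 to 0.97, edgeR adjusted p = 4.67e-07). Within treatments it was 0.61 without vehicle (edgeR adjusted p = 0.00575), 0.84 with vehicle (adjusted p = 0.000119) and 0.98 with ATRA (adjusted p = 1.30e-06). Leaving out replicate 1 of normoxia without vehicle lowered the value without vehicle to 0.55 and ended its call (edgeR adjusted p = 0.0838), as did a fit of only the 4 libraries without vehicle (0.61, adjusted p = 0.190). The overlapping transcript LOC107985423 held 1.57% as many counts.

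TXN, on chromosome 9 from 110243810 to 110256507 (minus strand), encodes thioredoxin itself, the substrate of TXNRD1. It lay between 216 and 308 CPM (median 267) in normoxia and between 194 and 324 CPM (median 245) in hyperoxia. The highest and the lowest library were both in hyperoxia. Hyperoxia differed by a mean log2 fold change of 0.03 (SE 0.090, edgeR adjusted p = 0.828), with an interval from -0.16 to 0.22 that does not reach the rise of TXNRD1. TXN and PGD have processed pseudogenes in RefSeq that the count files do not list, and reads with several alignments (7.65% to 8.91% of all reads) were left out of the counts, so the levels of both genes are uncertain to that extent.

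NQO1, on chromosome 16 from 69709401 to 69726560 (minus strand), encodes a quinone reductase that is often read as an indicator of NRF2 activity. In normoxia it was at 1211 and 1202 CPM without vehicle, 1345 and 1206 CPM with vehicle, and 1006, 1098 and 1116 CPM with ATRA. In hyperoxia it was at 1511 and 1347 CPM without vehicle, 1363 and 1466 CPM with vehicle, and 1209, 1219.8 and 1243 CPM with ATRA. Of the 7 hyperoxia libraries, 4 lay above all normoxia libraries. The mean log2 fold change was 0.19 (SE 0.064, interval 0.06 to 0.33, edgeR adjusted p = 0.0293). This call was lost in 9 of 14 fits that left out a library, where the adjusted p reached 0.173, and NQO1 was not called within any treatment by edgeR (log2 fold changes 0.24, 0.15 and 0.19 without vehicle, with vehicle and with ATRA). Its interval lies below those of TXNRD1 and SRXN1.

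NFE2L2, on chromosome 2 from 177230303 to 177264727 (minus strand), was at 88.9 to 110.0 CPM (median 102) in normoxia and 96.6 to 140.0 CPM (median 121) in hyperoxia. All 4 hyperoxia libraries without ATRA lay above the normoxia libraries, a pattern that was not counted over all genes. With ATRA the ranges overlapped. Its mean log2 fold change was 0.22 (SE 0.087, interval 0.03 to 0.40, edgeR adjusted p = 0.0693).

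KEAP1, on chromosome 19 from 10486125 to 10503356 (minus strand), was at 73.9 and 90.6 CPM in normoxia without vehicle, 81.2 and 94.6 CPM with vehicle, and 68.7, 58.5 and 87.1 CPM with ATRA. In hyperoxia it was at 171 and 108 CPM without vehicle, 98.0 and 104 CPM with vehicle, and 122, 114 and 92.0 CPM with ATRA. The value of 171 CPM belongs to the library that stood apart. The mean log2 fold change was 0.53 (SE 0.125, interval 0.26 to 0.79, edgeR adjusted p = 0.00404), and the call held in all 14 fits that left out a library, with values from 0.40 to 0.58. With ATRA it was 0.61 (edgeR adjusted p = 0.00659) and with vehicle 0.20 (adjusted p = 0.539). Without vehicle it was 0.77 (edgeR adjusted p = 0.0322), and 0.40 (adjusted p = 0.335) without the library that stood apart. Leaving out a normoxia library without vehicle also ended that call (adjusted p = 0.290 and 0.0733), as did leaving out any of the 4 vehicle libraries of the shared fit (adjusted p = 0.0504 to 0.0557).

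PGD, on chromosome 1 from 10399064 to 10420511 (plus strand), encodes 6-phosphogluconate dehydrogenase of the pentose phosphate pathway. Its normoxia levels were 1672 and 1674 CPM without vehicle, 1523 and 1661 CPM with vehicle, and 1517, 1459 and 1577 CPM with ATRA. Its hyperoxia levels were 1092 and 935 CPM without vehicle, 939 and 909 CPM with vehicle, and 1192, 983 and 989 CPM with ATRA. Every hyperoxia library lay below every normoxia library, a pattern found in the lower direction for 7.31% of all genes tested. Its mean fall was -0.68 on the log2 scale (SE 0.071, interval -0.83 to -0.53, edgeR adjusted p = 2.20e-06). PGD fell within each treatment, with log2 fold changes of -0.72 without vehicle (edgeR adjusted p = 0.00138), -0.79 with vehicle (adjusted p = 0.000142) and -0.52 with ATRA (adjusted p = 0.000849), and in every fit that left out a library. In a fit of only the 4 libraries without vehicle it was not called (-0.73, adjusted p = 0.13).

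ME1, on chromosome 6 from 83210402 to 83431051 (minus strand), encodes cytosolic malic enzyme, which makes NADPH while turning malate into pyruvate. In normoxia it was at 190.3 and 207 CPM without vehicle, 203 and 202 CPM with vehicle, and 124, 156 and 127 CPM with ATRA. In hyperoxia it was at 134 and 147 CPM without vehicle, 121 and 135 CPM with vehicle, and 107, 93.2 and 111 CPM with ATRA. Within each treatment the exposures did not overlap, though the share of all genes for which this held was not counted. Across treatments the exposures overlapped, because the normoxia libraries with ATRA were low. Over the treatments the mean log2 fold change was -0.52 (SE 0.082, interval -0.69 to -0.34, edgeR adjusted p = 0.000166). With vehicle it was -0.66 (edgeR adjusted p = 0.00345), without vehicle -0.50 (adjusted p = 0.0351) and with ATRA -0.38 (adjusted p = 0.0334). The call without vehicle was lost without the library that stood apart (-0.44, edgeR adjusted p = 0.171), without either normoxia library of that treatment (adjusted p = 0.0774 and 0.141) and without any of 3 vehicle libraries of the shared fit. The call with ATRA was lost without ATRA replicate 2 of hyperoxia (-0.34, adjusted p = 0.0841) or of normoxia (-0.27, adjusted p = 0.148), and the call with vehicle without vehicle replicate 1 of hyperoxia (-0.61, adjusted p = 0.0593).

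SLC7A11, on chromosome 4 from 138164097 to 138242349 (minus strand), encodes the transporter that brings in cystine in exchange for glutamate. In normoxia it was at 499 and 447 CPM without vehicle, 405 and 437 CPM with vehicle, and 328, 377 and 307 CPM with ATRA. In hyperoxia it was at 579 and 572 CPM without vehicle, 640.2 and 667 CPM with vehicle, and 529, 431 and 469 CPM with ATRA. Within each treatment hyperoxia lay above normoxia without overlap, though the share of all genes that did so was not counted. Its mean rise was 0.47 on the log2 scale (SE 0.072, interval 0.32 to 0.63, edgeR adjusted p = 0.000114). SLC7A11 rose with vehicle (0.63, edgeR adjusted p = 0.00203, and 0.55 with adjusted p = 0.0508 without vehicle replicate 1 of normoxia) and with ATRA (0.50, adjusted p = 0.00235). Without vehicle it was 0.28 higher (adjusted p = 0.164). The antisense transcript SLC7A11-AS1 overlaps its end and held 12.3% as many counts (8.10% to 16.5% per library). Its own mean log2 fold change was 0.29 (edgeR adjusted p = 0.213), and since the strand setting of the counting is not stated, reads of the pair in the overlap cannot be told apart.

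**Figure D2:**
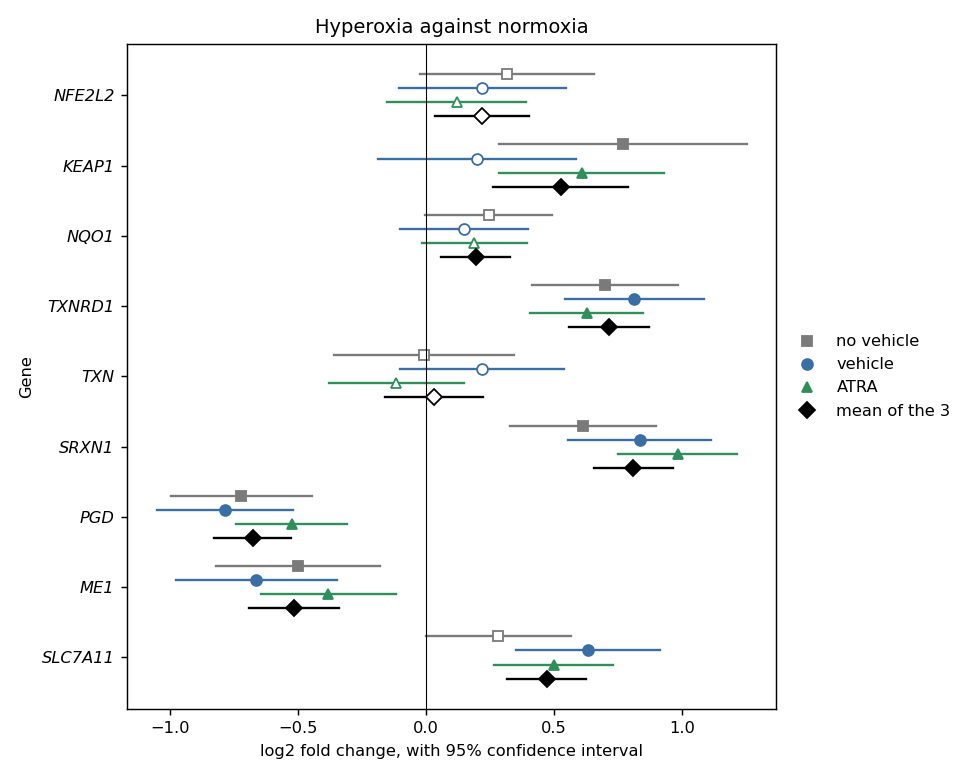
Log2 fold change of hyperoxia against normoxia with its 95% confidence interval (horizontal axis) for each gene, without vehicle (grey squares, 2 against 2 libraries), with vehicle (blue circles, 2 against 2), with ATRA (green triangles, 3 against 3) and as their mean (black diamonds). Filled symbols have an edgeR adjusted p under 0.05; TXNRD1, SRXN1, PGD and ME1 are filled in all 3 treatments, and NFE2L2 and TXN in none.

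By treatment, the 9 genes gave 3 calls higher and 2 lower with vehicle (8.68% and 8.81% of 14957 genes tested), 4 higher and 2 lower with ATRA (11.4% and 11.3%), and 3 higher and 2 lower without vehicle (7.57% and 7.58% of 15339 genes). The difference of the oxygen effect between ATRA and vehicle was tested directly. None of the 9 genes passed it in edgeR, which called 0.1% of all genes higher and 0.0401% lower, and 0 had an unadjusted p under 0.05. DESeq2, which called 53 of 14957 genes higher and 43 lower, called none of the 9 either. The largest of these differences in log2 fold change were 0.41 for KEAP1 (interval -0.09 to 0.91, edgeR adjusted p = 0.801) and -0.34 for TXN (-0.75 to 0.08, adjusted p = 0.801), so differences of this size were not resolved. The same test between vehicle and no vehicle also gave 0 calls in edgeR and DESeq2 and 0 unadjusted p under 0.05 (edgeR called 0.00652% of all genes higher and 0.0% lower). Its value was -0.57 for KEAP1 (interval -1.25 to 0.11) and 0.35 for SLC7A11 (-0.05 to 0.75). Vehicle against no vehicle called none of the 9 genes at either oxygen exposure by edgeR or DESeq2, and 0 had an unadjusted p under 0.05. In normoxia the log2 fold changes lay between -0.17 (SLC7A11) and 0.10 (KEAP1), with 0.0% of all genes called by edgeR. In hyperoxia they lay between -0.47 (KEAP1) and 0.25 (SRXN1), with 0.00652% called higher and 0.0% lower by edgeR.

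To set the genes beside each other, CPM was divided by the length of the canonical GENCODE 44 transcript. In normoxia the median level per kb was 695 CPM for PGD, 477 for NQO1, 393 for TXNRD1, 363 for TXN, 144 for SRXN1, 57.0 for ME1, 42.0 for SLC7A11, 41.6 for NFE2L2 and 31.6 for KEAP1. The ranges over 7 libraries separated PGD from NQO1, TXN from SRXN1 and SRXN1 from ME1. They overlapped between NQO1 and TXNRD1, between TXNRD1 and TXN, and between neighbours from ME1 down to KEAP1. In hyperoxia TXNRD1 came first (630.0 CPM per kb), PGD followed NQO1 (434 and 534), and ME1 came last (36.1). Of the 4 genes highest in normoxia, PGD was lower in hyperoxia and TXNRD1 was higher.

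**Figure D3:**
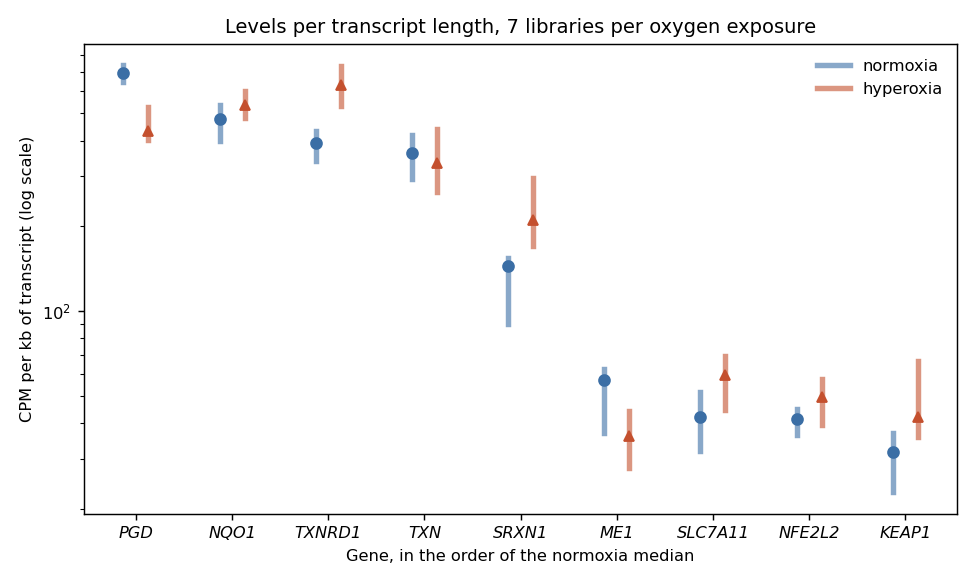
Median (symbol) and range (bar) of CPM per kb of transcript on a log axis for the 9 genes in 7 normoxia (blue) and 7 hyperoxia (orange) libraries, ordered by the normoxia median. PGD had the highest median in normoxia (695) and TXNRD1 in hyperoxia (630.0), and ME1 fell from the 6th to the 9th place.

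ATRA lowered SRXN1. With vehicle SRXN1 was at 381 ± 8.94 CPM in normoxia (SD, n = 2) and 679 ± 94.5 CPM in hyperoxia (n = 2), and with ATRA at 233 ± 7.07 CPM (n = 3) and 461 ± 45.8 CPM (n = 3). All ATRA libraries lay below the vehicle libraries of the same oxygen exposure, though the share of all genes with this pattern was not counted. The log2 fold change was -0.71 in normoxia (SE 0.122, interval -0.96 to -0.45, edgeR adjusted p = 0.00274) and -0.56 in hyperoxia (interval -0.81 to -0.31, adjusted p = 0.0128). The call in hyperoxia rested on vehicle replicate 2, without which the value was -0.41 (adjusted p = 0.402), and the call in normoxia was lost without vehicle replicate 1 (-0.69, adjusted p = 0.0600). With ATRA, SRXN1 in hyperoxia was nevertheless above every normoxia library without ATRA (430.2 to 514 against 365 to 387 CPM). The summed epithelial markers were at 2882 to 4166 CPM with ATRA and 1668 to 1836 CPM with vehicle in hyperoxia, and at 6991 to 9292 and 5921 to 7045 CPM in normoxia, and their part in the ATRA results was not tested.

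ME1 was the other member called in normoxia. It was at 203 ± 0.685 CPM with vehicle (SD, n = 2) and 136 ± 18.0 CPM with ATRA (n = 3), a log2 fold change of -0.58 (edgeR adjusted p = 0.0338) that passed in only 4 of 10 fits that left out a library, lost without either vehicle library of normoxia, either of hyperoxia, or ATRA replicates 1 or 3 of normoxia (adjusted p = 0.0516 to 0.313). So 2 of 9 genes were called lower in normoxia (0.435% of all genes tested) and 1 of 9 in hyperoxia (0.695%). None was called higher by edgeR or DESeq2 at either exposure, with 0 unadjusted p under 0.05 in that direction (edgeR called 0.816% and 1.52% of all genes higher). In hyperoxia TXN (-0.52, edgeR adjusted p = 0.0555) and SLC7A11 (-0.46, adjusted p = 0.0532) narrowly missed the threshold and were called by DESeq2 (adjusted p = 0.0160 and 0.00372).

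The mean ATRA effect over both oxygen exposures was added after seeing the data. It was negative for 8 of the 9 genes, with a median of -0.23 against 5.34e-05 over all genes tested. SRXN1 (-0.63, edgeR adjusted p = 7.16e-05), ME1 (-0.44, adjusted p = 0.0111) and SLC7A11 (-0.39, adjusted p = 0.0117) were called lower (1.14% of all genes tested) and 0 were called higher (2.24%), with 0 higher at an unadjusted p under 0.05 or by DESeq2. DESeq2 called 6 of the 9 lower. The calls of ME1 and SLC7A11 were lost without vehicle replicate 2 of hyperoxia (adjusted p = 0.100 and 0.0729) or of normoxia (adjusted p = 0.0508 and 0.0775), and that of ME1 also without vehicle replicate 1 of normoxia (adjusted p = 0.0538). PGD was at 0.06 (interval -0.11 to 0.23, edgeR adjusted p = 0.821).

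**Figure D4:**
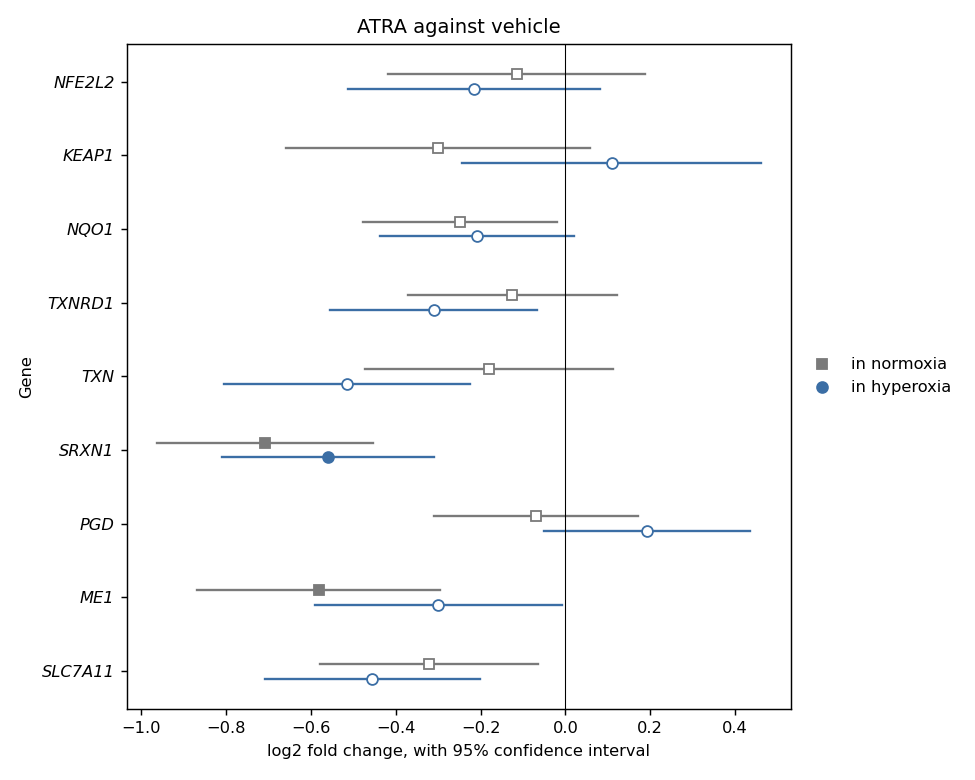
Log2 fold change of ATRA against vehicle with its 95% confidence interval (horizontal axis) for each gene, in normoxia (grey squares) and hyperoxia (blue circles), 3 ATRA against 2 vehicle libraries each. Filled symbols have an edgeR adjusted p under 0.05: SRXN1 at both exposures (-0.71 and -0.56) and ME1 in normoxia (-0.58).

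Other genes of the pathway were counted in 5 lists, 78 genes of which 76 passed the filter on low counts. As the mean over treatments, 23 were called higher in hyperoxia and 17 lower, where 15.5% of all genes tested were called in each direction; the list counts below are to be read against the same share. Partners and regulators of NRF2 were mostly on the higher side, with 8 of 14 called higher and 1 lower (RBX1, of the CUL3 ligase) and a median log2 fold change of 0.30. SQSTM1, the autophagy receptor p62 that also binds KEAP1, rose from a median of 1140 to 3961 CPM (log2 fold change 1.95, edgeR adjusted p = 4.07e-10). The acetyltransferase genes CREBBP (1.04, edgeR adjusted p = 4.25e-06) and EP300 (0.67, adjusted p = 9.87e-06) and the kinase gene GSK3B (0.78, adjusted p = 5.32e-06) rose as well. The kinase phosphorylates NRF2 for degradation, so the genes that rose include both activators and inhibitors. BACH1, which competes with NRF2 for the same DNA element, was higher by 1.40 (edgeR adjusted p = 0.000506).

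Of 10 other NADPH producers, 5 were called lower and none higher by edgeR or DESeq2, with 0 higher at an unadjusted p under 0.05, and the median was -0.35. Among them were the pentose phosphate gene TKT (-0.89, edgeR adjusted p = 5.95e-07), the isocitrate dehydrogenases IDH1 (-0.94, adjusted p = 9.24e-07) and IDH2 (-0.77, adjusted p = 0.00221), and the folate enzyme MTHFD2 (-0.92, adjusted p = 1.43e-06). TKT, IDH1 and MTHFD2 passed in all 3 treatments.

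Of 17 genes of the thioredoxin system 15 were tested, and 3 were called higher and 4 lower, shares near the 15.5% over all genes. The sestrin genes SESN2 (1.89, edgeR adjusted p = 5.95e-07) and SESN1 (1.40, adjusted p = 0.000183) rose, as did the mitochondrial reductase TXNRD2 (0.95, adjusted p = 0.00496). The peroxiredoxins PRDX1 (-0.49, edgeR adjusted p = 2.66e-05), PRDX3 (-0.32, adjusted p = 0.0148) and PRDX4 (-1.26, adjusted p = 0.000207), whose family SRXN1 serves, fell, and so did the glutaredoxin gene GLRX (-0.76, adjusted p = 0.00539). PRDX5 (-0.09, edgeR adjusted p = 0.457) and PRDX6 (-0.14, adjusted p = 0.180) did not pass. Within single treatments PRDX3 passed only with vehicle (edgeR adjusted p = 0.0247) and GLRX in none. TXNRD2 passed only without vehicle (adjusted p = 0.0375), the group of the library that stood apart.

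Among 12 genes of cystine uptake and glutathione, 2 were called higher and 4 lower, with a median of -0.15. These counts were 3 and 5 without the library that stood apart, with a median of -0.21. GSS, glutathione synthetase (0.81, edgeR adjusted p = 4.85e-06), and MGST1 (0.61, adjusted p = 6.38e-06) rose. GPX2, an NRF2-responsive glutathione peroxidase (-1.04, edgeR adjusted p = 1.42e-06), GSTP1 (-0.69, adjusted p = 2.63e-05) and the NADPH-using glutathione reductase GSR (-0.41, adjusted p = 9.30e-05) fell. CBS was called at no more than 25 counts per library. The rate-limiting pair of glutathione synthesis, GCLC (-0.23, edgeR adjusted p = 0.0878) and GCLM (-0.08, adjusted p = 0.556), and SLC3A2, the heavy chain that carries SLC7A11 to the membrane (0.05, adjusted p = 0.657), did not pass.

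Detoxification and iron targets of NRF2 gave 10 of 25 called higher and 3 lower (CBR1, CES1 and UGDH), with a median of 0.10. Without the library that stood apart the counts were 12 and 7. The genes with the smallest p were the heme oxygenase HMOX1 (1.56, edgeR adjusted p = 1.56e-09), the ferritin heavy chain FTH1 (1.19, adjusted p = 4.26e-09), OSGIN1 (1.80, adjusted p = 4.21e-08) and ABHD4 (1.16, adjusted p = 7.82e-08). FTH1 has many processed pseudogenes, and its level is uncertain in the way described for TXN. HMOX1 rose from a median of 329 to 965 CPM, and its log2 fold change lay between 1.47 and 1.64 in the 3 treatments. The aldo-keto reductases that are abundant in A549 were not called (AKR1B10 -0.08, AKR1C1 -0.14, AKR1C2 -0.21 and AKR1C3 0.10, adjusted p = 0.0651 to 0.398). With vehicle alone AKR1C1 was called lower (-0.38, edgeR adjusted p = 0.0464), and AKR1B10 was at -0.35 (adjusted p = 0.0515).

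SLC7A11 also answers to the stress factor ATF4, and genes of its other known inputs were examined beside it. Higher in hyperoxia were ATF4 itself (0.85, edgeR adjusted p = 5.09e-08), CDKN1A, which encodes an inhibitor of the cell cycle (3.62, adjusted p = 1.07e-12), and the ubiquitin ligase gene MDM2 (2.73, adjusted p = 1.37e-11). Lower were the ATF4 targets ASNS (-1.09, edgeR adjusted p = 0.000215), PSAT1 (-0.79, adjusted p = 0.000698) and SLC7A5 (-0.20, adjusted p = 0.0378). SLC7A11 and these ATF4 targets differed in direction in this mean. TRIB3 and DDIT3, also examined, did not pass (0.003 and 0.22, edgeR adjusted p = 0.992 and 0.502). TRIB3 was called lower with vehicle (-0.71, adjusted p = 0.0131) and higher with ATRA (0.62, adjusted p = 0.00986). Within treatments SLC7A5 passed only with vehicle (-0.52, adjusted p = 0.00321) and was at 0.09 with ATRA. The part of ATF4 in the rise of SLC7A11 was not tested.

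**Figure D5:**
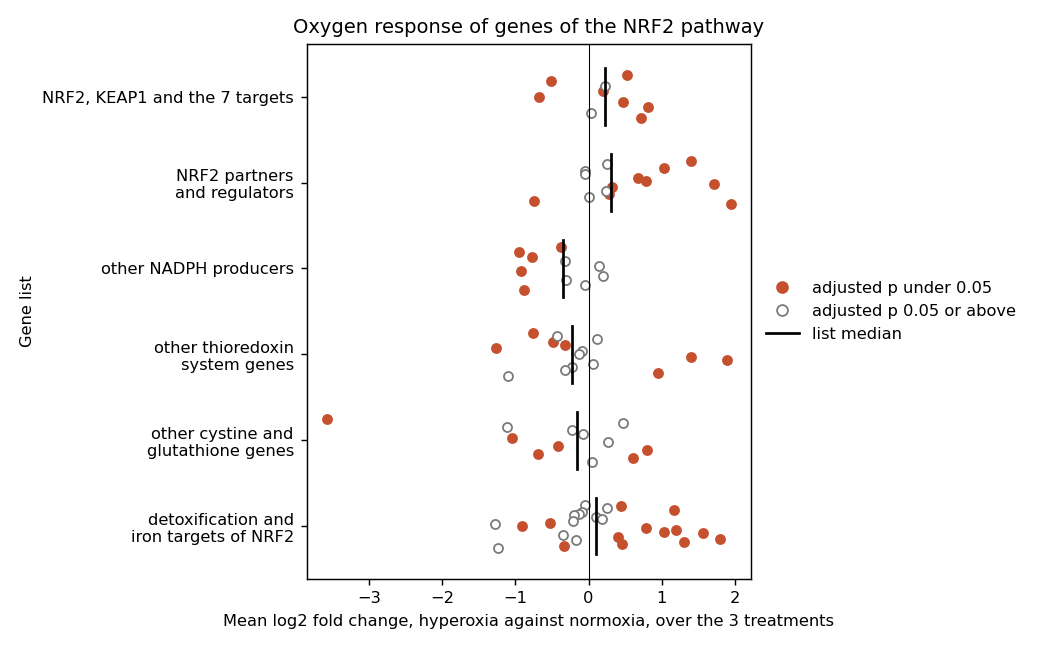
Mean log2 fold change of hyperoxia against normoxia over the 3 treatments (horizontal axis) for each tested gene of 6 lists, filled where the edgeR adjusted p is under 0.05, with the list median as a line. No NADPH producer is filled on the higher side, while the partners of NRF2 have 8 filled genes higher and 1 lower.

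Other NRF2 targets differed in their ATRA effect. In the mean over both oxygen exposures, 9 of 25 detoxification and iron genes were called lower and none higher by edgeR (5 at an unadjusted p under 0.05 and 2 by DESeq2), with a list median of -0.31 (1.14% of all genes tested were called lower and 2.24% higher). AKR1B10 (-0.67, edgeR adjusted p = 1.16e-05), OSGIN1 (-0.89, adjusted p = 0.000239) and FTH1 (-0.52, adjusted p = 0.000287) were among them, and were called lower at each oxygen exposure. CES1 of the same list was called higher by ATRA in hyperoxia (1.13, adjusted p = 0.0178). Of 15 thioredoxin system genes 1 was called lower (PRDX1, -0.48, adjusted p = 0.000694) and none higher by edgeR or DESeq2, with 0 higher at an unadjusted p under 0.05, and the median was -0.02. Of 12 cystine and glutathione genes GSTP1 was called higher (0.38, adjusted p = 0.0156) and GCLC lower (-0.45, adjusted p = 0.0183), the median was -0.04, and GPX2 was called higher in hyperoxia (0.59, adjusted p = 0.0282). None of the 10 other NADPH producers was called by edgeR or DESeq2 in this mean (3 were higher and 0 lower at an unadjusted p under 0.05), with a median of 0.10, while IDH1 was called higher in hyperoxia (0.73, adjusted p = 0.0111). None of the 14 partners and regulators was called by edgeR either (0 higher and 5 lower at an unadjusted p under 0.05, and 1 lower by DESeq2), while SQSTM1 was called lower in hyperoxia (-0.66, adjusted p = 0.00846). The vehicle libraries are shared by all ATRA comparisons.

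The genes whose profile over the 14 libraries was most like that of each member were found by the root mean square distance between centred log2 CPM values. For TXNRD1 they were MED13, RNF14 and MGST1 (distances 0.085 to 0.096, against a spread of 0.38 for TXNRD1 itself). For SRXN1 they were SHC1, RAB27B and IER3 (0.16 to 0.20, own spread 0.52), and for PGD they were B4GALT1, RPL8 and IRF2BP2 (0.073 to 0.11, own spread 0.35). ME1 was nearest to SLC20A1, CSGALNACT1 and PRDX1 (0.099 to 0.13), SLC7A11 to UBASH3B, PRKCA and SLC38A2 (0.11 to 0.13) and KEAP1 to CERK, MLST8 and ELOB (0.12 to 0.14). NQO1 (CLTC, DYNC1LI2 and AP2B1), TXN (CALU, CLTC and BTF3) and NFE2L2 (RDH11, NOMO1 and NDUFA10) varied little themselves, with own spreads of 0.16, 0.22 and 0.17. The smallest distance between 2 of the 9 genes was 0.13, between NFE2L2 and NQO1, and the largest was 0.82, between SRXN1 and PGD. The points share libraries and depth, and these distances are a description without a test.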

How the data were processed

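A549 cells were sequenced as stranded total RNA libraries, 15 in all. Per the labels and the study's methods, Trimmomatic 0.38 trimmed the reads, HISAT2 placed them on hg38 and HTSeq assigned them to genes. What the authors deposited are these raw counts, one per gene symbol, with no normalization. The annotation release and the strand setting of the counting are not given in the sources used here. Reads outside annotated genes (48.6% to 55.3% of all reads) and the other unassigned classes were left out of library sizes.

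Tests used edgeR 4.0.16 under R 4.3.3 (filterByExpr with a minimum count of 10 and a minimum total of 15, TMM, quasi-likelihood test, Benjamini-Hochberg adjustment over all genes tested, threshold 0.05). Comparisons among vehicle and ATRA libraries came from a fit of 10 libraries (14957 genes), and those with the libraries without vehicle, and the mean oxygen effect, from a fit of 14 libraries (15339 genes). Profiles used log2 CPM with a prior count of 2. The 3-count floors cover counting error only. Gene positions and promoters came from RefSeq GRCh38.p14 (35188 of the 43388 symbols matched) and transcript lengths from GENCODE 44 (26122 symbols). The labels do not say that libraries came from separate cultures, so p-values measure the spread between libraries, which may be technical.

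Alternatives were DESeq2 1.42.0, RLE size factors, total counts only, no filter, only the groups compared, all 14 libraries, a block of library sets and leaving out each library. The procedure was tested on simulated data. Plots used matplotlib 3.10.9 in Python 3.11.15.

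The 9 genes and the lists were chosen with earlier results of these data known. All 9 are named, and of each list the 4 genes with the smallest p in the mean oxygen effect. Other list genes, such as BACH1, GCLC, GCLM, SLC3A2, the aldo-keto reductases and those that complete a count of 5 or fewer, were chosen after their values were seen. Protein sequences and the SLC7A11 promoter were not analysed here. Results for some genes of the lists are not reported here.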

Additional observations from a re-analysis of the deposited data

Results flagged for a closer look

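The library without a group has a title naming hyperoxia and a treatment label naming another procedure, and it entered no comparison. Its levels were set beside the 7 normoxia libraries because it is outside the main comparisons. For 7 of the 9 genes it lay above all normoxia libraries, as it did for 25.6% of the 15339 genes tested. TXNRD1 was at 2603 CPM and SRXN1 at 737 CPM, against normoxia maxima of 1676 and 387 CPM. SLC7A11 was at 550.4 CPM, NQO1 at 1486 CPM, TXN at 321 CPM, NFE2L2 at 121 CPM and KEAP1 at 104 CPM. All 7 values were within the range of the 7 hyperoxia libraries.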

How the results depend on the processing

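No paired analysis was possible because the labels give no replicate numbers that could pair libraries across groups; the block of library sets given below is not such a pairing. No member reversed its direction after being called. With DESeq2 the members called lower by ATRA numbered 3 in hyperoxia (1 in the main analysis) and 6 in the mean over both exposures (3). Without a filter on low counts 3 were called lower by ATRA in hyperoxia. With only the groups compared in the fit, the oxygen effect without vehicle gave 0 members higher (3) and 0 lower (2), with 58 of all genes called. The oxygen effect with ATRA gave 1 lower (2) and ATRA in hyperoxia 2 lower. With all 14 libraries in a fit, the oxygen effect with ATRA and the ATRA effect in normoxia each gave 1 lower (2 and 2). Total counts as library sizes gave 1 lower for the oxygen effect with ATRA. A block of library sets, inferred from the library numbers, gave 1 lower for ATRA in normoxia and 1 lower for the oxygen effect without vehicle (2 each). For the mean oxygen effect the counts stayed within 1.5 times of 5 higher and 2 lower in all alternatives run, with 4 to 5 higher and 2 lower when a library was left out. Its call of NQO1 was lost with RLE size factors (edgeR adjusted p = 0.0511) and without a filter (0.121). Leaving out a library gave, for members called, 2 to 3 higher and 1 to 2 lower for the oxygen effect with vehicle, 4 and 1 to 2 with ATRA, and 1 to 3 and 1 to 2 without vehicle. It gave 0 to 2 lower for ATRA in normoxia, 0 to 3 in hyperoxia and 1 to 4 in their mean, and 0 to 1 lower for vehicle in hyperoxia and for the oxygen by vehicle difference. That last call was KEAP1 without hyperoxia replicate 2 of the no-vehicle group, which leaves the library that stood apart alone in its group and assumes that it varies like the others. The members had at least 187 counts in every library, and the part of depth in the lost calls was not tested. The cause of these changes was not tested.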

Other observations

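In the library without a group, PGD was at 967 CPM, below the lowest normoxia library (1459 CPM) and within the hyperoxia range (909 to 1192 CPM). ME1 was at 134 CPM, within the ranges of both exposures.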
